A study of Mus musculus with 4 samples.

Results

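Thin filament, Z-disc and M-band genes were followed in C2C12 cells, a mouse muscle cell line, as 42 genes chosen by symbol: the muscle actins and actinins, the tropomyosins, titin, nebulin, the myosin-binding proteins, and the proteins of the Z-disc and M-band, with myosins and troponins left out. The count files list 49585 genes, and every one of the 42 was found among them. RNA was sequenced from 2 libraries of C2C12 cells (strain C3H) transduced with a retrovirus to overexpress C/EBPβ, a leucine zipper transcription factor, and from 2 libraries of cells given the empty vector pLXSN. All 4 came from pools of drug-resistant cells that had been selected with G418 for 7 days, had proliferated for 2 days and had then differentiated for 2 days in 2% horse serum. A pool of transduced cells is not a clone, and no source used here names the promoter that drives C/EBPβ in the virus. Since no label ties the libraries to separate cultures, each p-value below reflects only how far these 4 libraries spread, and that spread may be technical.

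The sarcomere is the repeating contractile unit of striated muscle. Thin filaments of actin, tropomyosin and nebulin are anchored in the Z-disc by α-actinin, thick filaments are crosslinked at the M-band by the myomesins, and titin spans from the one to the other. Myoblasts begin to express these genes when they leave the cell cycle, and the proteins assemble into myofibrils in the fused myotubes. Several of them also sense load or carry signals between the Z-disc and the nucleus.

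The libraries held 36461091 to 51537847 fragments assigned to genes. Cebpb, the targeted gene, stood at 502 and 442 CPM in C/EBPβ cells, against 42.7 and 41.3 CPM in empty-vector cells (CPM is the count of a gene scaled to the size of its library). The 5 markers listed for skeletal myoblasts and myotubes (Myod1, Myog, Cdh15, Mymk and Des) were all present, and all 5 were lower in C/EBPβ cells. Their summed levels were 2908 and 3693 CPM in C/EBPβ cells and 6948 and 7137 CPM in empty-vector cells. In bulk RNA, fewer differentiated cells and less muscle RNA per cell cannot be told apart. Of the cardiac list, Nppa, Tbx5 and Ryr2 were at or near 0, Myh6 was lower and Nkx2-5 was higher, with sums of 4.88 and 11.1 CPM in C/EBPβ cells and 47.7 and 53.8 CPM in empty-vector cells. The smooth muscle list, mostly Acta2, summed to 3126 and 3824 CPM in C/EBPβ cells and 3587 and 3611 CPM in empty-vector cells, with Cnn1 and Tagln higher, Smtn lower and Myh11 near 0. The endothelial list, of which Tek was lower, reached at most 0.831 CPM in any library, and of the epithelial list Epcam was at 0 and Cdh1 had 0.153 and 0.492 CPM in C/EBPβ cells against 2.65 and 2.49 CPM in empty-vector cells. Of the macrophage list, Adgre1 was at 0 and Ptprc had at most 0.0273 CPM, while Csf1r was higher at 0.632 and 1.12 CPM in C/EBPβ cells against 0.337 and 0.396 CPM in empty-vector cells. Cd68, the most abundant of that list, was not called, with 3.60 and 2.84 CPM in C/EBPβ cells and 2.51 and 2.14 CPM in empty-vector cells. Of 5 fibro-adipogenic markers Pdgfra was higher, Lum was lower, Dcn and Ly6a were not called and Thy1 was not tested. Their sums were 618 and 466 CPM in C/EBPβ cells and 480 and 424 CPM in empty-vector cells. Pdgfra had 92.1 and 79.1 CPM in C/EBPβ cells against 15.5 and 8.42 CPM in empty-vector cells, and lost its call with genes of low count kept in (adjusted p = 0.0734). Plin1 of the adipocyte list was higher at 0.823 and 0.656 CPM in C/EBPβ cells against 0 CPM in empty-vector cells. The other adipocyte markers, Adipoq, Cidec and Lep, had at most 0.345 CPM in any library and were not tested. Myh6, Tek and Csf1r missed the threshold without empty-vector replicate 1 (adjusted p = 0.207, 0.0698 and 0.127) and without replicate 2 (0.194, 0.193 and 0.109), and Tek and Csf1r also without C/EBPβ replicate 2 (0.110 and 0.167). The part of these other markers in the results below was not tested.

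Expression of the sarcomere genes was lower in C/EBPβ cells nearly throughout. Of the 42 genes, 40 had enough fragments to be tested, 37 fell, none rose and 3 did not pass (adjusted p under 0.05 in edgeR's quasi-likelihood test, adjusted over all 15886 genes tested). Over all genes 20.9% were lower and 22.3% were higher by the same rule. No member was higher at an unadjusted p under 0.05 either, nor was any called higher by DESeq2 or limma-voom. At least 2-fold falls were found for 30 members, beside 7.5% of all genes, and at least 4-fold falls for 10, beside 2.58%. The median log2 fold change was -1.46 over the 40 genes and 0.01 over all genes. The C/EBPβ libraries stood below both empty-vector libraries for 39 of the 40, as they did for 36.7% of all genes, and above both for Tmod4. Together the 42 genes took 1.304 ± 0.312% of assigned fragments in C/EBPβ cells and 2.869 ± 0.192% in empty-vector cells (SD, n = 2 each). Without empty-vector replicate 1 only 19 members passed as lower, and without empty-vector replicate 2 only 14, while 36 and 39 passed without C/EBPβ replicates 1 and 2. In these fits 1 library stands for a group and is assumed to vary like the other group. The number of all genes passing as lower also dropped without either empty-vector library and without C/EBPβ replicate 1. It rose without C/EBPβ replicate 2.

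**Figure D1:**
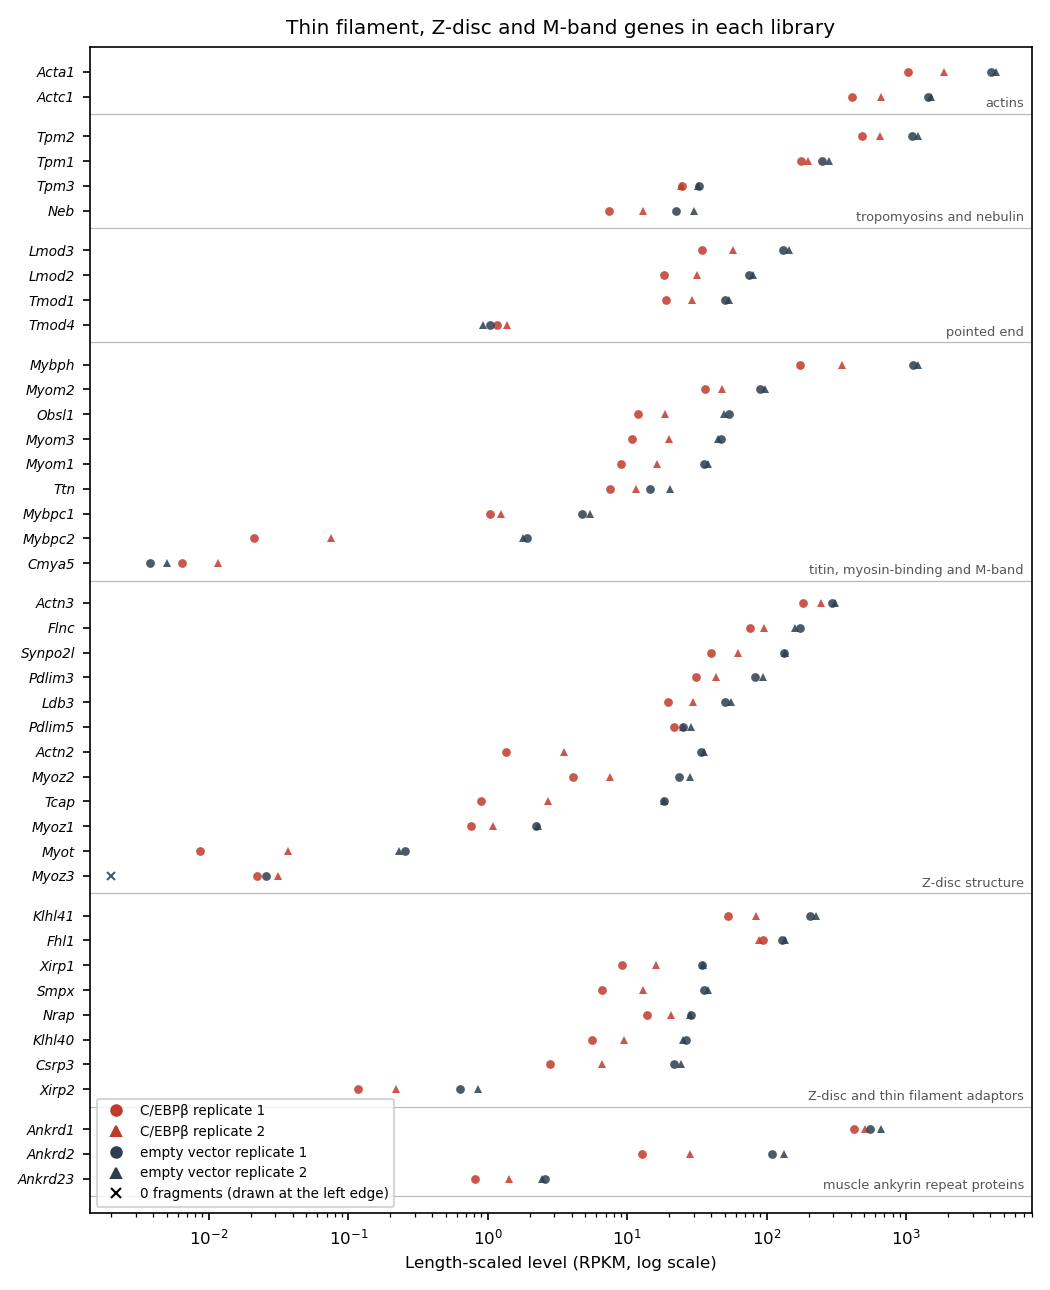
Length-scaled level (RPKM, log axis) of each of the 42 genes in every library, grouped by role. C/EBPβ libraries are red and empty-vector libraries dark, circles are replicate 1 and triangles replicate 2, and the red points lie to the left of the dark ones for 39 of the 40 tested genes.

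**Figure D2:**
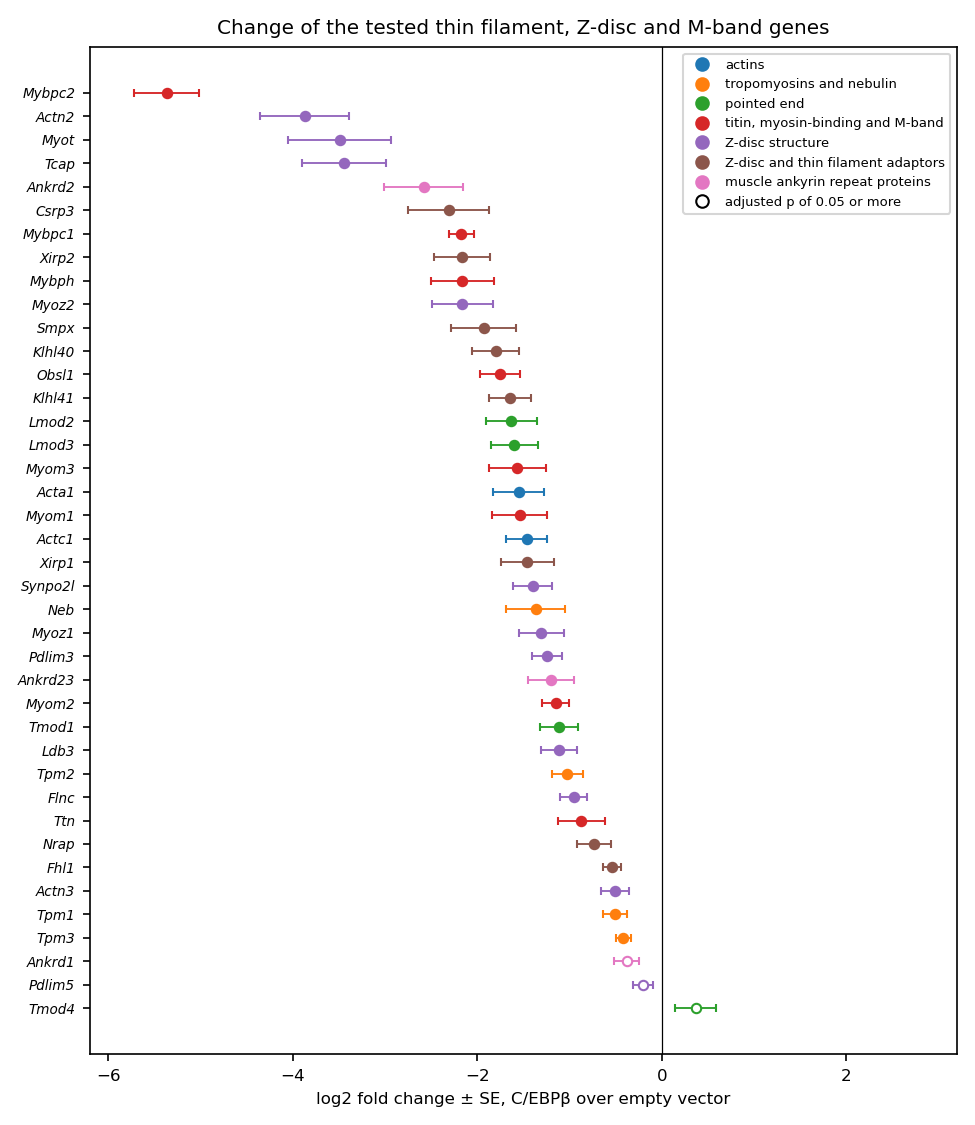
Log2 fold change (C/EBPβ over empty vector) with its standard error for the 40 tested genes, ordered by size and coloured by role. Values run from -5.37 for Mybpc2 to 0.37 for Tmod4, and open circles mark the 3 genes with an adjusted p of 0.05 or more.

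Upstream sequences of some members that differ in role and in size of change are printed for reference (RefSeq, GRCm38.p6, the 250 bases before the annotated start, 5′ to 3′ on the gene's strand). Capitals mark matches to 5 motifs searched on both strands: the CArG box of serum response factor, the MEF2 site, the E-box CANNTG of the myogenic factors, the MCAT element CATTCC of the TEAD factors and the C/EBP palindrome TTGCGCAA.
Acta1, chr8:123894776-123895025, minus strand: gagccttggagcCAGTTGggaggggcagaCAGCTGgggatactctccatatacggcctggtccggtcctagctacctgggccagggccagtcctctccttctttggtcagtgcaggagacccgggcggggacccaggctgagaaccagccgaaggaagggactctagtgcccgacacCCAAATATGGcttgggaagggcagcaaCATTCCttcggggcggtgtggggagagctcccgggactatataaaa
Actc1, chr2:114052876-114053125, minus strand: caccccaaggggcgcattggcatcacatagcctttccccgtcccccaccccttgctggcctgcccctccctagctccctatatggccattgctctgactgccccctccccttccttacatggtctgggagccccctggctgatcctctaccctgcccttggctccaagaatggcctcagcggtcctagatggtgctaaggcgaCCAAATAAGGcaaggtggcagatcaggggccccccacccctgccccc
Myom1, chr17:71019307-71019556, plus strand: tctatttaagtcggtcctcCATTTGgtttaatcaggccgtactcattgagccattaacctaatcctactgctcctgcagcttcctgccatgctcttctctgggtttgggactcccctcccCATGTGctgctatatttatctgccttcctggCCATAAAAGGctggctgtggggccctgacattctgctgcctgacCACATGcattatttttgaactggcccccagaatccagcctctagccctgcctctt
Klhl41, chr2:69669870-69670119, plus strand: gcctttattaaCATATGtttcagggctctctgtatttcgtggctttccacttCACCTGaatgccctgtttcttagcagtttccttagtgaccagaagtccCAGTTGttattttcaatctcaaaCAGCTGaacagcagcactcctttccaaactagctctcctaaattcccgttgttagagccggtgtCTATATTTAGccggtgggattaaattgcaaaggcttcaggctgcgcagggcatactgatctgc
Myoz2, chr3:123034988-123035237, minus strand: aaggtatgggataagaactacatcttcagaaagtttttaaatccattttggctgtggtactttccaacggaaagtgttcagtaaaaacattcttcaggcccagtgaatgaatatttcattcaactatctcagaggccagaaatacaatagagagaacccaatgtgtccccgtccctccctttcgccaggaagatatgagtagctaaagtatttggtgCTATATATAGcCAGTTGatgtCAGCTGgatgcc
Mybpc2, chr7:44524670-44524919, minus strand: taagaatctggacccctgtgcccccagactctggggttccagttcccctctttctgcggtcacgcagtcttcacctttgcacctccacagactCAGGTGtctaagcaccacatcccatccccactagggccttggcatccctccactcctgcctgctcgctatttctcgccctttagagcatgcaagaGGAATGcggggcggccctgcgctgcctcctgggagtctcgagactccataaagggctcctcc
Ankrd1, chr19:36119845-36120094, minus strand: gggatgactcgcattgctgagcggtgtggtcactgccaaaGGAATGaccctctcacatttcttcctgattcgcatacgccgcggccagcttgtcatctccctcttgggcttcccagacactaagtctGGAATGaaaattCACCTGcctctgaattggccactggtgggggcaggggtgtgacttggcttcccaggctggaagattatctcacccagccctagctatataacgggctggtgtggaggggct
The capitals of Acta1 hold a CArG box, an MCAT element and a pair of E-boxes, those of Actc1 a CArG box, those of Klhl41 and Myoz2 a MEF2 site and E-boxes, and those of Ankrd1 a pair of MCAT elements on the opposite strand and an E-box. Of the 42 members, 33 had an upstream window, and 11 of these held a CArG box or a MEF2 site. Most of the printed sequences hold one, so they are not typical of the members. A CArG box was found in 5 of the 33 (15.2%), against 1.62% of all 27025 genes with a window, and a MEF2 site in 6 (18.2%), against 3.42%. An E-box was found in 28 (84.8%), against 69.3%, and an MCAT element in 9 (27.3%), against 14.4%. The C/EBP palindrome was found in none of the 33, against 0.185% of all genes. At so low a share no match is likely among 33 genes of any kind, and other forms of the C/EBP site were not searched. Whether these windows hold C/EBP sites was therefore not tested. Matches of different motifs did not overlap in these windows, and a match describes the letters only.

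In empty-vector cells the sarcomeric actins were the most abundant of these genes per length. Acta1, the skeletal α-actin (chromosome 8, 123891769 to 123894751, GRCm38), had 1586 and 2878 CPM in C/EBPβ cells, against 6258 and 6829 CPM in empty-vector cells. Actc1, the cardiac α-actin that developing skeletal muscle also makes, had 661 and 1063 CPM in C/EBPβ cells, against 2317 and 2442 CPM in empty-vector cells. Neither gene's groups overlapped, and C/EBPβ replicate 1 was the lowest library for each. Acta1 fell 2.93-fold (log2 fold change -1.55, with an SE of 0.28 and an adjusted p of 0.00592) and Actc1 fell 2.76-fold (adjusted p = 0.00259, with a log2 fold change of -1.47 and an SE of 0.22). The adjusted p of Acta1 was 0.0522 without empty-vector replicate 2. Of the 50-base windows of Acta1 transcripts, 2.02% were also found in another gene, mainly Actb.

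Genes of the tropomyosins, the coiled-coil proteins that lie along the thin filament, fell by less. Tpm2, β-tropomyosin, had 1399 and 1904 CPM in C/EBPβ cells and 3187 and 3531 CPM in empty-vector cells (log2 fold change -1.02, SE 0.17). Tpm1, α-tropomyosin, had 1135 and 1287 CPM in C/EBPβ cells and 1621 and 1824 CPM in empty-vector cells, a 1.42-fold fall. Tpm3, whose products serve slow muscle and non-muscle cells, had 150 and 147 CPM in C/EBPβ cells and 200 and 197 CPM in empty-vector cells, the smallest fall that passed (log2 fold change -0.42, SE 0.08). Gene counts pool muscle and non-muscle transcripts of each tropomyosin gene, and 23.2% of Tpm3's windows are shared, mainly with Tpm3-rs7. Neb, the giant protein that runs along the thin filament, had 196 and 345 CPM in C/EBPβ cells and 596 and 800 CPM in empty-vector cells (log2 fold change -1.37, SE 0.32, adjusted p = 0.0256). Neb missed the threshold when empty-vector replicate 1 or 2 was left out (adjusted p of 0.109 and of 0.196) or when genes of low count were kept in (0.204), as did Tpm1 without empty-vector replicate 2 (0.123).

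Genes for proteins of the filament's pointed end split into 3 that fell and 1 that did not. The leiomodins start and elongate actin filaments there. Lmod3 had 76.0 and 127 CPM in C/EBPβ cells and 292 and 320 CPM in empty-vector cells, a 3.03-fold fall. Lmod2 had 36.6 and 62.6 CPM in C/EBPβ cells and 148 and 158 CPM in empty-vector cells, a 3.10-fold fall. Tmod1, a tropomodulin that caps the pointed end, had 74.7 and 115 CPM in C/EBPβ cells and 198 and 212 CPM in empty-vector cells (log2 fold change -1.11, SE 0.21). Tmod4, the skeletal muscle tropomodulin, was the least abundant of this group. It had 1.99 and 2.38 CPM in C/EBPβ cells and 1.80 and 1.58 CPM in empty-vector cells (log2 fold change 0.37, SE 0.22, adjusted p = 0.212). Its C/EBPβ libraries both lay above its empty-vector libraries, and it did not pass under any alternative run. Without empty-vector replicates 1 and 2 in turn the adjusted p was 0.115 and 0.136 for Tmod1, 0.164 and 0.156 for Lmod2, and 0.107 and 0.117 for Lmod3, and Lmod2 also missed the threshold with genes of low count kept in (0.106).

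All 8 tested genes of titin, the myosin-binding proteins and the M-band fell, by a median log2 fold change of -1.66. Mybph, a relative of myosin-binding protein C, was the most abundant of them per length, with 407 and 809 CPM in C/EBPβ cells and 2622 and 2817 CPM in empty-vector cells, a 4.48-fold fall. Mybpc2, the fast-muscle myosin-binding protein C (chromosome 7, 44501699 to 44524656), fell the most of all 40 genes, with 4 and 10 fragments in C/EBPβ cells and 309 and 327 in empty-vector cells (log2 fold change -5.37, SE 0.36, adjusted p = 3.1e-05). Mybpc1, the slow-muscle form, had 4.67 and 5.61 CPM in C/EBPβ cells and 21.4 and 24.7 CPM in empty-vector cells. The groups of these 3 genes lay far apart, and Mybpc1 and Mybpc2 kept their calls under every alternative run. The log2 fold change of Mybpc2 was -4.60 without C/EBPβ replicate 1 and -6.42 without replicate 2. That of Mybph was -1.75 without C/EBPβ replicate 1 and -2.76 without replicate 2.

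Among the myomesins, which crosslink myosin filaments at the M-band, Myom2 had 321 and 424 CPM in C/EBPβ cells and 795 and 859 CPM in empty-vector cells (log2 fold change -1.15, SE 0.15). Myom1 fell by 1.54 and Myom3 fell by 1.57 on the log2 scale (SE 0.30 and 0.31). Obsl1, the obscurin-like protein that joins titin to myomesin, had 101 and 158 CPM in C/EBPβ cells and 454 and 420 CPM in empty-vector cells, a 3.37-fold fall. Ttn, the giant spring of the sarcomere, had 873 and 1354 CPM in C/EBPβ cells and 1699 and 2376 CPM in empty-vector cells, and its fall was the smallest of the group (log2 fold change -0.87, SE 0.25, adjusted p = 0.0355). Cmya5, a Z-disc and costamere protein, had 4 and 5 fragments in C/EBPβ cells and 2 and 3 in empty-vector cells and was not tested. Ttn lost its call without empty-vector replicate 2 (adjusted p = 0.182) and in DESeq2 (0.0714). Without empty-vector replicates 1 and 2 in turn the adjusted p was 0.0783 and 0.0919 for Mybph, 0.205 and 0.197 for Myom1, and 0.211 and 0.181 for Myom3, and it was 0.176 for Myom1 and 0.178 for Myom3 without the low-count filter.

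Of 11 tested structural genes of the Z-disc 10 fell, and the sizes of their falls spread widely. Actn3, the α-actinin of fast fibres, was the most abundant per length, with 526 and 709 CPM in C/EBPβ cells and 856 and 902 CPM in empty-vector cells, a 1.42-fold fall (adjusted p = 0.0268). Actn2, the other muscle α-actinin, had 4.98 and 13.0 CPM in C/EBPβ cells and 125 and 132 CPM in empty-vector cells, a 14.6-fold fall (adjusted p = 0.00627), or -3.87 on the log2 scale (SE 0.48). Of the Z-disc crosslinkers, then, Actn2 had the largest fall of the group and Actn3 the smallest that passed. Tcap, telethonin, which ties together the titin ends in the Z-disc, had 0.842 and 2.54 CPM in C/EBPβ cells and 17.5 CPM in each empty-vector library, a 10.9-fold fall. Myot, myotilin, had 1 and 3 fragments in C/EBPβ cells and 25 and 26 in empty-vector cells (log2 fold change -3.49, SE 0.56). Leaving out empty-vector replicate 1 or 2 gave an adjusted p of 0.166 or 0.149 for Actn2, 0.0756 or 0.141 for Actn3, and 0.0902 or 0.0822 for Tcap. Actn3 also missed the threshold without C/EBPβ replicate 1 (0.0611), and Actn2 with genes of low count kept in (0.0908). Without C/EBPβ replicates 1 and 2 in turn the log2 fold change was -2.78 and -4.39 for Tcap and -2.67 and -4.65 for Myot. For Actn2 it was -3.30 without C/EBPβ replicate 1 and -4.71 without replicate 2.

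Flnc, the muscle filamin, had 718 and 897 CPM in C/EBPβ cells and 1642 and 1492 CPM in empty-vector cells (log2 fold change -0.96, SE 0.14). Synpo2l, an actin-binding Z-disc protein, had 184 and 289 CPM in C/EBPβ cells and 620 and 627 CPM in empty-vector cells, a 2.64-fold fall. Of the genes for PDZ and LIM proteins, which bind α-actinin, Ldb3 and Pdlim3 fell 2.16-fold and 2.37-fold. Pdlim5 did not pass, with 192 and 224 CPM in C/EBPβ cells and 225 and 254 CPM in empty-vector cells (log2 fold change -0.21, SE 0.11, adjusted p = 0.167), although it passed without C/EBPβ replicate 2 (0.0113). The calsarcins, which link α-actinin to calcineurin, were represented by Myoz2 with a 4.47-fold fall and Myoz1 with a 2.47-fold fall, while Myoz3 had at most 1 fragment in any library and was not tested. Leaving out empty-vector replicate 1 or 2 gave an adjusted p of 0.0697 or 0.0955 for Ldb3 and 0.140 or 0.142 for Myoz2, and for Synpo2l it was 0.0525 without replicate 2. Myoz2 also missed the threshold with genes of low count kept in (0.125).

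All 8 genes for adaptors of the Z-disc and thin filament fell. Klhl41, a Kelch protein that stabilises nebulin, had 135 and 214 CPM in C/EBPβ cells and 516 and 572 CPM in empty-vector cells, a 3.13-fold fall, and its relative Klhl40, which protects nebulin and leiomodin 3, fell 3.48-fold. Fhl1, a LIM-domain protein, had 349 and 326 CPM in C/EBPβ cells and 475 and 504 CPM in empty-vector cells, the smallest fall of the group (log2 fold change -0.54, SE 0.10). Xirp1, a Xin protein that binds actin, had 53.2 and 94.1 CPM in C/EBPβ cells and 200 and 203 CPM in empty-vector cells. Csrp3, the muscle LIM protein, fell the most, with 7.43 and 17.6 CPM in C/EBPβ cells and 57.5 and 64.9 CPM in empty-vector cells (log2 fold change -2.31, SE 0.44). Xirp2, Smpx and Nrap, a scaffold of early myofibrils, had log2 fold changes of -2.17, -1.93 and -0.74. Without empty-vector replicates 1 and 2 in turn the adjusted p was 0.241 and 0.233 for Csrp3, 0.204 and 0.189 for Nrap, 0.208 and 0.192 for Xirp1, 0.207 and 0.194 for Smpx, and 0.102 and 0.0938 for Klhl40, and for Klhl41 it was 0.0581 without replicate 2. Csrp3 (0.174), Xirp1 (0.165) and Smpx (0.159) lost their calls without the low-count filter as well. The log2 fold change of Csrp3 was -1.79 without C/EBPβ replicate 1 and -3.06 without replicate 2.

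The muscle ankyrin repeat proteins bind titin and respond to stretch and injury. Ankrd1 stayed high, with 753 and 892 CPM in C/EBPβ cells and 980 and 1160 CPM in empty-vector cells (log2 fold change -0.38, SE 0.14, adjusted p = 0.0536). It passed as lower without C/EBPβ replicate 2 (adjusted p = 0.000752), without the low-count filter (0.00344), in DESeq2 (0.0132) and in limma-voom (0.04997). Ankrd2 had 14.1 and 31.1 CPM in C/EBPβ cells and 120 and 147 CPM in empty-vector cells, a 5.97-fold fall that was lost without empty-vector replicates 1 and 2 in turn (0.198 for each) and with genes of low count kept in (0.141). Its log2 fold change was -2.58 with all libraries, -2.10 without C/EBPβ replicate 1 and -3.27 without C/EBPβ replicate 2. Ankrd23 had 2.18 and 3.802 CPM in C/EBPβ cells and 6.89 and 6.62 CPM in empty-vector cells, and 78.2% of its exonic bases lie in Gm42417 on the same strand, so its count covers only part of the gene.

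Changes within families followed no common size, as ratios of length-scaled levels (RPKM) in each library show. The Actn2 to Actn3 ratio was 0.0109 ± 0.0049 in C/EBPβ cells and 0.114 ± 0.001 in empty-vector cells (SD, n = 2 each). The Ankrd2 to Ankrd1 ratio was 0.0430 ± 0.0184 in C/EBPβ cells and 0.200 ± 0.005 in empty-vector cells. The Tpm2 to Tpm1 ratio was 3.02 ± 0.39 in C/EBPβ cells and 4.35 ± 0.05 in empty-vector cells, while the Pdlim5 to Pdlim3 ratio ran the other way, at 0.639 ± 0.076 in C/EBPβ cells and 0.307 ± 0.004 in empty-vector cells. For these 4 ratios the groups did not overlap. They overlapped for Actc1 to Acta1, at 0.373 ± 0.032 in C/EBPβ cells and 0.346 ± 0.009 in empty-vector cells, and for Lmod2 to Lmod3, at 0.547 ± 0.010 in C/EBPβ cells and 0.561 ± 0.011 in empty-vector cells. Groups that do not overlap are common with 2 libraries each. For single genes, C/EBPβ lay below both empty-vector libraries in 36.7% and above both in 38.4% of all genes tested. An exact 2-sided permutation of 2 against 2 libraries cannot give a p below 0.333, so no ratio was tested.

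**Figure D3:**
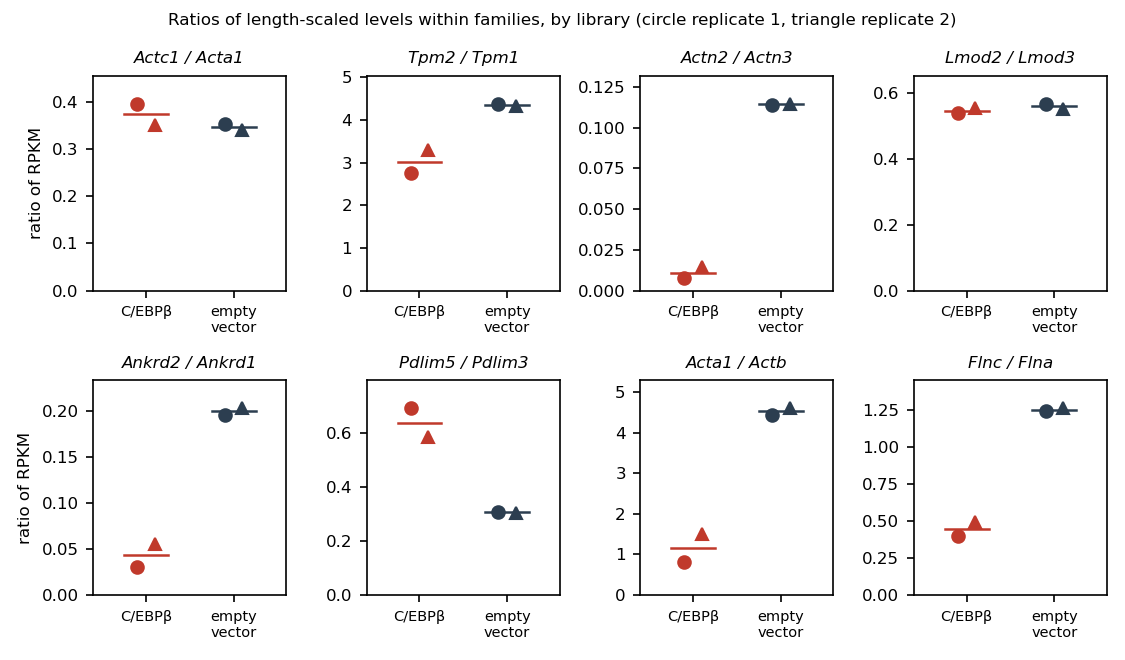
Ratio of length-scaled levels (RPKM) between named genes in each library, with C/EBPβ at the left and empty vector at the right of each panel; bars are group means, circles replicate 1 and triangles replicate 2. The Actn2 to Actn3 ratio averages 0.0109 in C/EBPβ cells and 0.114 in empty-vector cells, whereas the Lmod2 to Lmod3 ratio averages 0.547 in C/EBPβ cells and 0.561 in empty-vector cells.

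The order of levels changed little at the top. In C/EBPβ cells the highest per length were Acta1 (1453 RPKM), Tpm2 (568 RPKM), Actc1 (533 RPKM), Ankrd1 (466 RPKM) and Mybph (261 RPKM). In empty-vector cells they were Acta1 (4260 RPKM), Actc1 (1471 RPKM), Mybph (1168 RPKM), Tpm2 (1155 RPKM) and Ankrd1 (606 RPKM), where Mybph and Tpm2 did not differ beyond their spread (1126 and 1209 RPKM for Mybph, 1096 and 1214 RPKM for Tpm2). Actn2 stood in place 32 of the 42 in C/EBPβ cells and in place 23 in empty-vector cells. Across the 40 tested genes, which share the same 4 libraries, Spearman's rho between the empty-vector level and the log2 fold change was 0.27. The fold change has the empty-vector level as its denominator, so these measures are not independent, and their relation was not tested.

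Non-muscle and smooth muscle counterparts of these genes were set beside them. This list and the next were chosen with earlier results of these data known, so their contrast with the members is a description and not independent support. Of 35 genes tested, 17 rose, beside 22.3% of all genes, 6 fell, a share near the 20.9% of all genes, and 12 did not pass, with a median log2 fold change of 0.21. Actb, the cytoplasmic β-actin, rose by 0.42 on the log2 scale (SE 0.13 and adjusted p = 0.0292), and Acta2, smooth muscle α-actin, had 1742 ± 272 RPKM in C/EBPβ cells and 1841 ± 4.80 RPKM in empty-vector cells (log2 fold change -0.08, adjusted p = 0.699). Cnn3, a calponin and the next in abundance, was among those that fell (-0.50), together with Pdlim1 (-1.48), Ablim1 (-0.77), Pdlim4 (-0.61), Vcl (-0.37) and Tagln2 (-0.27). Tpm4, the non-muscle tropomyosin, rose (0.58), as did the filamin Flna (0.54), the LIM protein Fhl2 (0.57), Tmod3 (0.36) and Lmod1 (2.32), the smooth muscle leiomodin. Cnn1, a smooth muscle calponin, rose the most, with 3.48 and 2.60 CPM in C/EBPβ cells and 0.157 and 0.138 CPM in empty-vector cells. The Acta1 to Actb ratio of RPKM was 1.16 ± 0.49 in C/EBPβ cells and 4.52 ± 0.11 in empty-vector cells, and the Flnc to Flna ratio was 0.443 ± 0.065 in C/EBPβ cells and 1.25 ± 0.02 in empty-vector cells (SD, n = 2 each). Without empty-vector replicate 2 the counts were 9 higher and 3 lower, and Cnn3 (adjusted p = 0.0844), Tagln2 (0.313), Tmod3 (0.0887) and Flna (0.103) were among those lost. Actb and Vcl missed the threshold without empty-vector replicate 1 (0.198 and 0.129) and without replicate 2 (0.137 and 0.161), and Vcl also without C/EBPβ replicate 1 (0.143). In edgeR without robust estimation Actb (0.0638), Vcl (0.0514) and Tagln2 (0.0521) did not pass, nor did Tagln2 with library sizes alone (0.0988) or a filter at 1 CPM (0.0529).

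A second list held 34 other genes of sarcomere assembly and maintenance. Of 33 tested, 25 fell, beside 20.9% of all genes, 2 rose, beside 22.3%, and 6 did not pass, with a median log2 fold change of -1.21. The 3 most abundant, Des, the muscle intermediate filament (log2 fold change -0.89), Cryab, a small heat shock protein (-1.22), and Cfl2, the muscle cofilin (-0.68), all fell. Those that rose were Lmcd1, a LIM protein (1.65), and Tln2, a talin (0.28). Srf, the serum response factor that binds the CArG box, stood at 0.26 on the log2 scale and did not pass (adjusted p = 0.0619), and its cofactors Mrtfa and Mrtfb stood at -0.07 and -0.11 without a call, as did Bag3, Nebl and Fbxo32. Abra, an activator of these cofactors in muscle, fell by 3.16 on the log2 scale (adjusted p = 0.0159). Without empty-vector replicates 1 and 2 in turn 14 and 13 of the list were lower and 1 was higher each time, and the calls of Abra (adjusted p = 0.202 and 0.210) and Tln2 (0.0624 and 0.0916) were lost. Tln2 also missed the threshold without C/EBPβ replicate 2 (0.0518), and Abra with genes of low count kept in (0.154). The log2 fold change of Abra was -2.53 without C/EBPβ replicate 1 and -4.12 without replicate 2. Srf passed as higher without C/EBPβ replicate 2 (0.00952), with library sizes alone (0.0394) and with genes of low count kept in (0.0245).

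**Figure D4:**
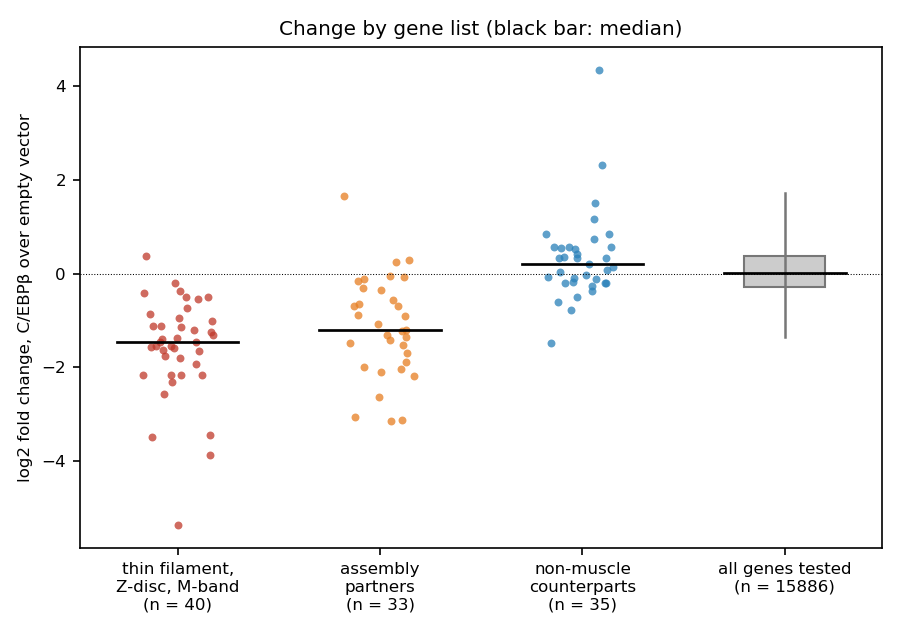
Log2 fold change (C/EBPβ over empty vector) of each tested gene in 3 lists, with the median as a black bar, and at the right the quartiles (box) and the 5th to 95th percentile (line) of all 15886 genes tested. The medians are -1.46 for the thin filament, Z-disc and M-band genes, -1.21 for the assembly genes and 0.21 for the non-muscle counterparts.

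The C/EBPβ libraries differed from each other in these genes more than the empty-vector libraries did. In C/EBPβ cells 38 of the 40 genes were higher in the second replicate than in the first, as were 7834 of all 15886 genes tested. The median log2 ratio was 0.68 over the 40, against a median of 0.00 over all genes tested. In empty-vector cells 30 of the 40 were higher in replicate 2, as were 7698 of all 15886 genes tested, with medians of 0.09 and -0.006. Fhl1 and Tpm3 were the exceptions in C/EBPβ cells, with log2 ratios of -0.10 and -0.03. The skeletal marker sum also differed between the C/EBPβ replicates, as given above, and Cebpb had 502 CPM in replicate 1 and 442 CPM in replicate 2. The part of these differences in the sizes of the falls was not tested. With C/EBPβ replicate 1 left out the median log2 fold change of the 40 genes was -1.13, and with replicate 2 left out it was -1.90.

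**Figure D5:**
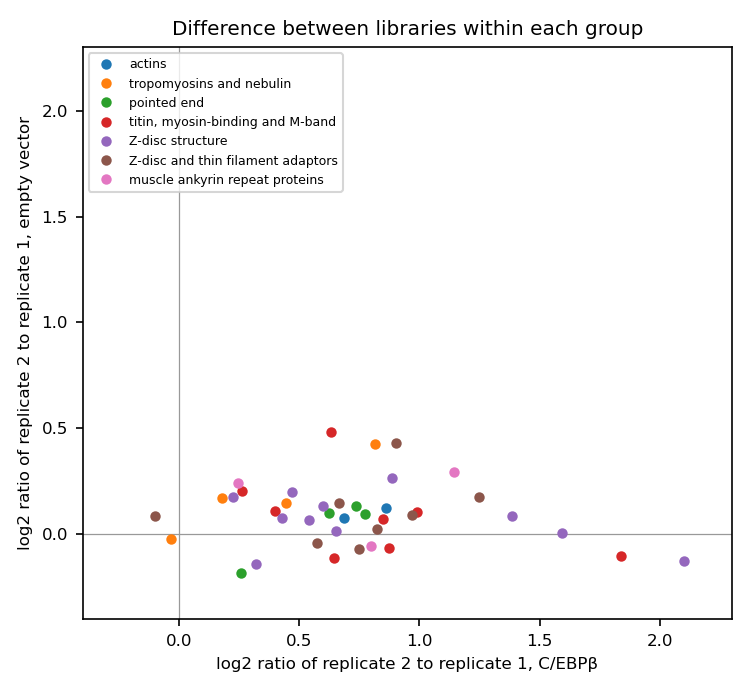
Log2 ratio of replicate 2 to replicate 1 for the 40 tested genes, in C/EBPβ libraries (horizontal axis) and in empty-vector libraries (vertical axis), coloured by role. Points spread along the horizontal axis, with medians of 0.68 in C/EBPβ cells and 0.09 in empty-vector cells.

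The authors' deposited table holds 40 of the 42 genes, and 39 of them are lower there at an adjusted p under 0.05, beside 20.9% of all genes in that table. No member is higher there, beside 16.1% of all genes. The remaining gene is Tmod4, with a log2 fold change of 0.29 and an adjusted p of 0.494 in the authors' deposited table. Pdlim5 and Ankrd1 are lower in the authors' deposited table, with log2 fold changes of -0.27 (adjusted p = 0.0172) and -0.44 (adjusted p = 0.000636). The fold changes of the authors' deposited table and of the fit here differed by a median of 0.06 on the log2 scale, and by 1.55 at most, for Mybpc2. The mean signal of the authors' deposited table is not simply a rescaled mean of these 4 libraries, so its calls may not rest on the same counts or libraries.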

How the data were processed

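Groups and replicate numbers came from the sample titles. The deposited file of each library holds unscaled counts of fragments by gene. HISAT2 2.0.4 and GRCm38 are named in the submitters' processing notes, and the file headers name featureCounts 1.5.1 with paired fragments on the reverse strand against GENCODE M12 (the notes name version 1.4.6). By default that program drops fragments that fall in exons of several genes or align to several places, and the header shows no option that changes this. The authors' deposited table holds for each gene the mean signal, the log2 fold change, a standard error of that change, the score of the test, and p-values before and after adjustment (18373 genes have an adjusted one). No source used here says which libraries entered it, and over the members the ratio of its mean signal to the mean CPM of these 4 libraries lay between 24.7 (Actc1) and 64.2 (Tpm3), so the signal is not simply their rescaled mean.

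Counts were filtered with filterByExpr (minimum count 10, minimum total 15), scaled by TMM and tested with edgeR 4.0.16 in R 4.3.3 (glmQLFit, robust, and glmQLFTest, 2-sided, Benjamini-Hochberg over 15886 genes, threshold 0.05), C/EBPβ over empty vector. Standard errors were taken from the F statistic, and RPKM from the scaled library and the exon length in the files. The common biological coefficient of variation was 9.42%. The test was tested on simulated counts. Alternatives used DESeq2 1.42.0, limma 3.58.1, other scalings and filters, and each library left out. Shared sequence is the percent of 50-base windows of GENCODE M21 transcripts found in another gene. The members, gene lists and rules were chosen with earlier results of these data known. In each role group the 3 most abundant members per length, the largest fall and the members without a call were given by library; further members and genes were named after their values were seen.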

Additional observations from a re-analysis of the deposited data

How the results depend on the processing

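With 2 libraries a group, the number of members called fell most when a control library was left out. The median size of the falls moved little. The members' median log2 fold change was -1.521 without empty-vector replicate 1 and -1.435 without replicate 2, against -1.461 with all libraries. The median moved further when a C/EBPβ library was left out. Some members moved more than the median without a control library. Ttn stood at -1.10 without empty-vector replicate 1 and -0.61 without replicate 2, against -0.87 with all libraries. Neb stood at -1.57 and -1.14 in the same fits, against -1.37. A fit without a control library takes its spread from the C/EBPβ pair alone. Over the fits that left out 1 library in turn, 14 to 39 of the 40 tested members were lower, against 37 with all libraries, and their median log2 fold change ran between -1.90 and -1.13. In the same fits 13 to 26 assembly genes were lower and 1 to 2 higher, 3 to 6 non-muscle counterparts were lower and 9 to 17 higher, and 1836 to 3702 of all genes were lower and 2169 to 3712 higher. Without empty-vector replicate 2 23 members lost their call, and without replicate 1 18 did. Under the 7 alternatives that kept all libraries without a block, 28 (no low-count filter) to 38 members were lower, and their median lay between -1.50 and -1.41. Of all genes 2852 (library sizes alone) to 3684 (no low-count filter) were lower in these fits, against 3324 in the main fit. The fit without the low-count filter also tested more genes. Without the low-count filter 10 members lost their call. No member changed the sign of its fold change under any of the 12 alternatives, and 13 members were called lower under all of them. With the replicate number as a block 36 members were lower, 35 of them among the 37, beside 3694 of all genes. With this block Actn2 (adjusted p = 0.0563) and Csrp3 (0.0573) lost their call while Ankrd1 (0.0220) gained one. The labels do not say that equal numbers mark a shared culture, and the correlation of the same-numbered deviations across genes was 0.19. At the depth of these libraries Cmya5 and Myoz3 could not be tested.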
